A study of Mus musculus with 6 samples.

Results

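The relaxin family genes described here are Insl3, Insl6 and Rln1, which encode insulin-like and relaxin peptides, and Rxfp1 and Rxfp2, which encode receptors for such peptides. They were found by gene symbol among the 23253 genes listed in any of 6 deposited tables, and all 5 were present. Each table holds the poly(A)-selected messenger RNA of 1 library made from the testes of C57BL/6 mice aged 8 months. By label, 3 libraries are controls and 3 come from L3mbtl2 cKO mice, a conditional knockout of a gene that encodes a Polycomb group protein. The labels give neither the Cre strain nor the cells in which the gene was deleted, and they do not say whether the replicates were separate animals. P-values therefore refer to the spread among the libraries alone, and part of that spread may be technical.

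Relaxin family peptides are made as prohormones and cut into paired chains held together by disulphide bonds. INSL3 is secreted by Leydig cells, the testosterone-producing cells between the tubules, and acts through RXFP2, a G protein-coupled receptor that raises cyclic AMP. In the fetus this pair drives the descent of the testis, and in the adult INSL3 is used as a measure of Leydig cell capacity. INSL6 comes from germ cells, and relaxin, encoded in the mouse by Rln1, acts through RXFP1.

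The Insl3 gene shares its last exon with another gene. Insl3 (Entrez 16336) lies on chromosome 8 from 71689252 to 71690577 of mm10, inside the RefSeq span of Jak3 (Entrez 16453, 71676383 to 71690577), which encodes a tyrosine kinase of cytokine receptors and runs on the same strand. In GENCODE M21, on the same assembly, the second and last exon of Insl3 (71690172 to 71690575) is also the last of 25 exons of the Jak3 transcript Jak3-201. These 404 shared bases are 64.8% of the 623-base Insl3 transcript and 10.1% of the 4019-base Jak3 one. In Insl3 191 of them are coding, whereas in Jak3 none is. The 15 bases on either side of the splice junction are shown from the GENCODE transcripts, 5′ to 3′, with the shared exon in capitals. A read that lies wholly within the shared exon does not tell the transcripts apart.
Insl3-201: tggagacccgggaccGGGAGCTGCTGCAGT
Jak3-201: cagccaggggcgagaGGGAGCTGCTGCAGT

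The sequence before Insl3 is shown because NR5A1, a nuclear receptor that regulates genes of steroid synthesis, is read among the regulators of Insl3. It covers chr8:71689002-71689213 of GRCm38.p6 on the plus strand, from 250 bases before the RefSeq start to the base before the GENCODE start. Capitals mark each AAGGTC, a core of the NR5A1 site, on either strand.
Insl3 promoter: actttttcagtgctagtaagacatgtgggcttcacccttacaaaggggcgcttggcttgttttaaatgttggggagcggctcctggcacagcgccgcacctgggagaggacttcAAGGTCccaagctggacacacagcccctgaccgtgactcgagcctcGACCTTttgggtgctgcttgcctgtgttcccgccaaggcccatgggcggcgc
There were 2 matches, at 71689116 to 71689121 on the plus strand and at 71689162 to 71689167 on the minus strand. Of 27025 RefSeq promoters cut to the 250 bases before the RefSeq start, 10.7% held this motif at least once. It was in 0 of the 6 promoters of other Leydig cell markers that the table holds. The Rln1 and Rxfp2 promoters had 0 matches. On both strands 5 other motifs were searched as well: AAGGTCA (4.05% of promoters) and AAAGGTCA (1.31%), which contain AAGGTC, the cyclic AMP element TGACGTCA (1.62%), and TATAAA (3504 promoters) and TTATAA (5.41%). Insl3 held 1 TTATAA, which lies in the 38 bases between the GENCODE and RefSeq starts and so not in the sequence shown. Rln1 held 1 TATAAA, and there was no other match in these 3 promoters. Insl6 and Rxfp1 have no entry in the table.

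Before the members were compared, the targeted gene was read as a check of the labels. L3mbtl2 went against them: its count after scaling was 1.59-fold higher in the cKO-labelled libraries (log2 0.67, SE 0.10, edgeR adjusted p = 0.166) with no overlap between groups. In FPKM, which is also scaled for gene length, the difference was smaller, at 14.0, 14.9 and 13.6 against 15.9, 17.1 and 16.0. The length given for it ran from 2652 to 3498 bases over the libraries, and the part of length in the count difference was not tested. The deposited tables are themselves named with the opposite genotype. Groups here follow the labels, so each direction below would turn if they were exchanged. Expected counts summed to between 17689205 and 18822050 per library. The library labelled control 2 correlated with the cKO-labelled ones at 0.980 to 0.982 (Pearson r across genes, which are not independent, of log2 CPM, the count scaled for library size), and with labelled control 3 at 0.937. edgeR's quasi-likelihood test called 0 of 18269 genes at a Benjamini-Hochberg adjusted p of 0.05, that is 0.0% in either direction. At an unadjusted p of 0.05 it called 1617 genes higher (8.85%) and 3439 lower (18.8%). The lowest adjusted p of any gene was 0.166, so this value does not rank the genes that share it. L3mbtl2 and Insl3 both had it, with unadjusted edgeR p of 0.00018 and 0.0095. DESeq2 called 0.405% of genes higher and 7.67% lower, limma on log2(FPKM + 1) called 0.0065% higher and 0.0% lower, and edgeR without the library labelled control 2 called 11.0% higher and 20.7% lower. Without regard to a test, the groups did not overlap for 18.0% of genes with the cKO label on the higher side and for 19.9% with it on the lower side. Of the 5 members 3 could be tested, and edgeR called 0 of them.

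Insl3 was the most abundant member in every library, and it was lower and far more even in the cKO-labelled libraries. It had 27051, 13026 and 70228 expected counts in the control-labelled libraries and 9613, 11115 and 9998 in the cKO-labelled ones. In FPKM, which is scaled for length and depth, these are 2845, 1337 and 7339 against 955, 1110 and 1001. All 3 libraries labelled cKO lay below all 3 labelled control, but labelled control 2 stood close above them while labelled control 3 was over 5 times as high as labelled control 2. A separation in this direction was found for 19.9% of all genes tested.

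The means of Insl3 were 3840 ± 3122 against 1022 ± 79.8 FPKM (SD, n = 3 each). In edgeR the log2 fold change, labelled cKO minus labelled control, was -1.80 (SE 0.52), a 3.48-fold difference with an adjusted p of 0.166, so it did not pass. Without the library labelled control 2 it passed, at -2.17 with an adjusted p of 0.00850, in a fit where edgeR called 20.7% of all genes lower. Without labelled control 3 it was -0.93 (adjusted p = 0.170), and the alternatives together gave adjusted p from 0.00850 to 0.377. In bulk tissue, fewer Leydig cells and less Insl3 RNA per cell cannot be told apart.

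**Figure D1:**
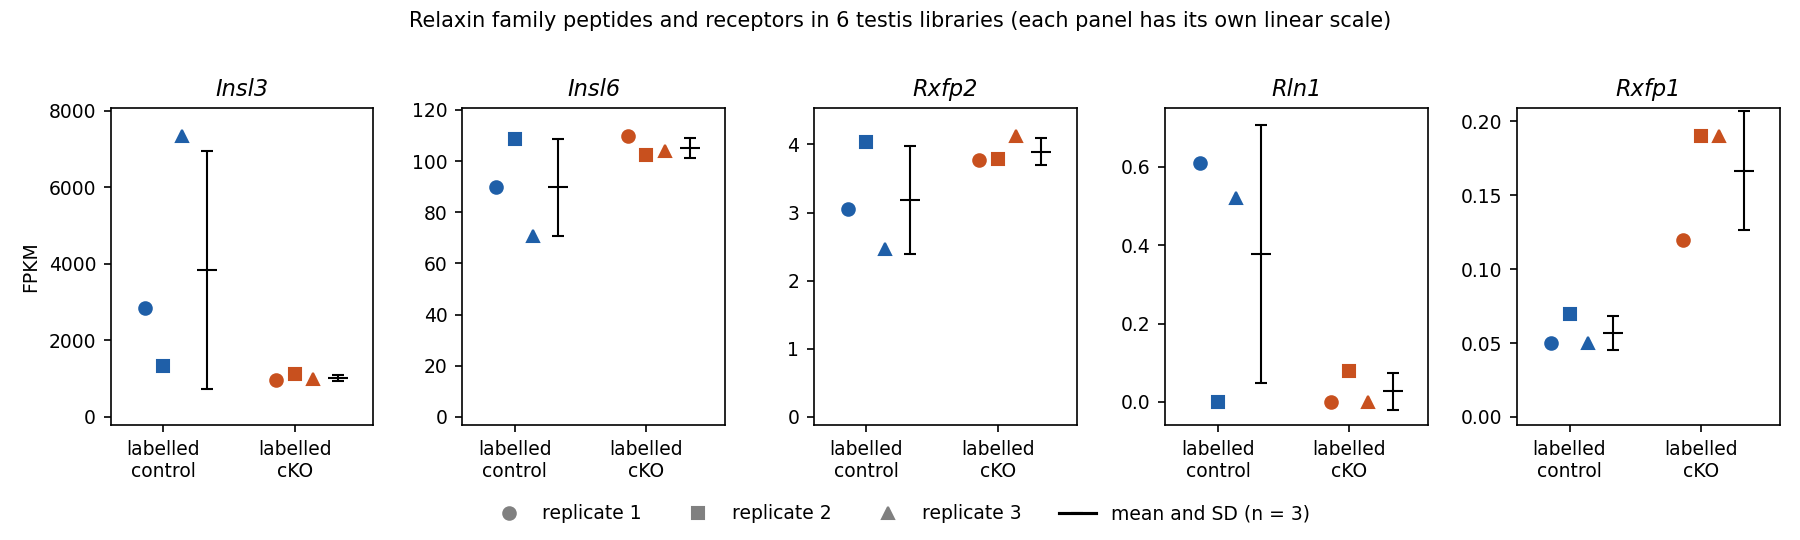
FPKM of the 5 members in each library, with replicate numbers as symbols and the mean and SD (n = 3) beside each group; each panel has its own linear axis. Insl3 spreads from 1337 to 7339 FPKM in the control-labelled libraries and sits between 955 and 1110 in the cKO-labelled ones, while Insl6 and Rxfp2 overlap between groups.

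Jak3, the gene that shares this exon, was read next. Its row held 12075, 1986 and 14511 expected counts in the control-labelled libraries and 2565, 4993 and 2574 in the cKO-labelled ones. The lowest library, labelled control 2, and the highest, labelled control 3, both carry the control label, and the groups overlap. The length that the tables give for Jak3, an average over transcripts weighted by abundance, was 577 to 624 bases, whereas the 3 protein-coding Jak3 transcripts of GENCODE have 3774 to 4019 bases. Of these only Jak3-201 reaches the shared exon. The row also lists assembled transcript models of the submitters, which have no position here, so how many of its counts come from Insl3 RNA was not tested. Expected counts of Insl3 were not whole numbers in any library.

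Because reads of the shared exon can be given to either gene, both rows were also summed. The ratio of Insl3 to Jak3 counts was 2.24, 6.56 and 4.84 in the control-labelled libraries and 3.75, 2.23 and 3.88 in the cKO-labelled ones. It differed almost as much between replicates of 1 label as over all libraries. The sum was 2080, 826 and 4540 CPM against 673, 887 and 698. With the sum the groups overlapped, since labelled cKO 2 lay above labelled control 2. The log2 fold change of the sum was -1.72 (edgeR adjusted p = 0.166). That Insl3 lay lower in all libraries labelled cKO therefore holds for its own row and not for both rows together.

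**Figure D2:**
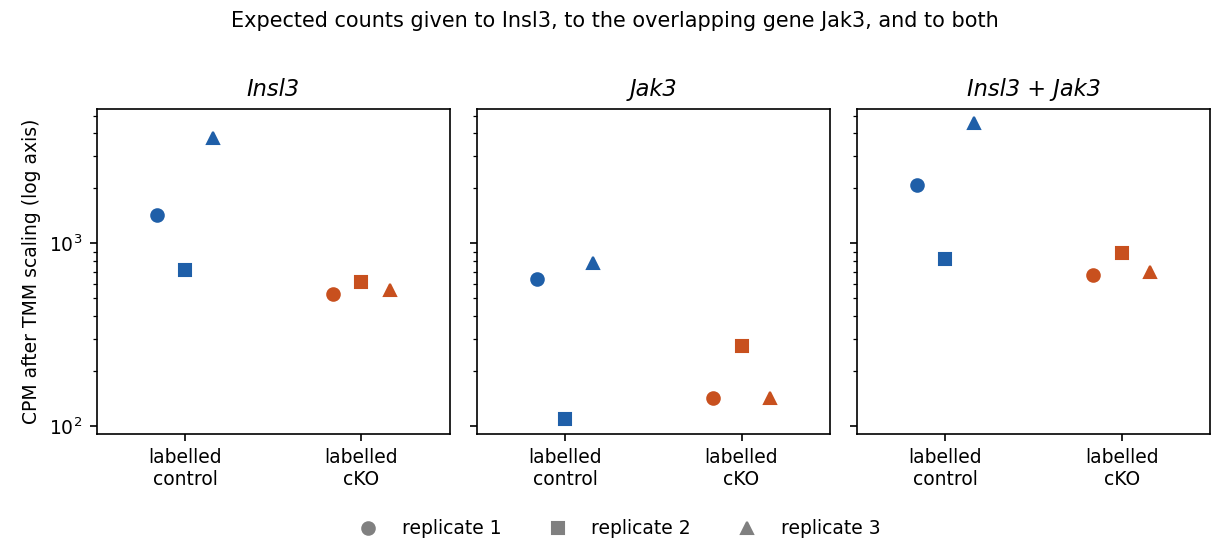
CPM after scaling (log axis) for Insl3, Jak3 and their sum in each library, with replicate numbers as symbols. The groups are apart for Insl3 alone, and for the sum labelled cKO 2 at 887 CPM lies above labelled control 2 at 826.

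Insl3 was then set against other genes of Leydig cells, to see whether it moved apart from them. All 10 other Leydig cell markers had a lower estimate in the cKO-labelled libraries, with a median log2 fold change of -1.56, against -0.0048 for all genes tested. Their summed level was 445 to 1827 FPKM in the control-labelled libraries and 319 to 401 in the cKO-labelled ones. Lhcgr, the receptor for luteinizing hormone, was at 8.39, 4.76 and 18.4 FPKM against 2.88, 1.77 and 1.92 (log2 -2.13, SE 0.51). Hsd17b3, the enzyme of the last step to testosterone, was at 59.8, 30.1 and 141 in control-labelled libraries, against a mean of 17.6 ± 4.19 (SD, n = 3) with the cKO label (log2 -2.02, SE 0.50). Cyp17a1, which makes androgen precursors, was at 284, 130 and 542 against 110, 84.4 and 101 (log2 -1.58, SE 0.43). Each had its highest value in labelled control 3 and its lowest control value in labelled control 2, as Insl3 did. edgeR called 0 of the 10 and DESeq2 called 4 lower, against 7.67% of all genes. Without the library labelled control 2 edgeR called all 10 lower, against 20.7% of all genes.

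Relative to these markers Insl3 differed little between groups. Its log2 CPM minus the mean of the 10 was 3.65, 3.54 and 4.10 in the control-labelled libraries and 3.27, 3.85 and 3.68 in the cKO-labelled ones. The groups overlapped, and the difference of -0.16 was below the SD of either group (0.29 and 0.30). An exact two-sided permutation test gave p = 0.6, where 3 against 3 libraries cannot give less than 0.1. With Jak3 added to Insl3 the difference was -0.097 (exact p = 0.8). Markers of other somatic cells also had lower estimates throughout: 10 of 10 Sertoli, 8 of 8 macrophage and 8 of 8 myoid and stromal genes, with medians of -1.001, -1.45 and -0.69. Summed FPKM was 834 to 2256 against 627 to 658 for Sertoli, 52.2 to 241 against 44.6 to 51.8 for macrophage and 56.3 to 158 against 48.8 to 58.8 for myoid and stromal genes. Without labelled control 2 edgeR called 10, 8 and 6 of them lower, against 20.7% of all genes. Among markers of the adjoining epididymis, Crisp1 had 46 expected counts in labelled control 3, the library highest in Insl3, and 1 or 2 in each other library. Rnase10, Defb20 and Cst8 did not share this pattern. Rnase10 had 24, 0 and 40 counts in the control-labelled libraries against 80, 1 and 67. Defb20 had 2, 3 and 1 against 0, 1 and 3, and Cst8 had 2033, 2608 and 2133 against 2924, 2544 and 2720. Adam7, at 0, 0 and 4 against 0, 0 and 1, was also highest in labelled control 3, but at very few counts. Lcn5, Lcn8 and Lcn9 were listed in no library. The part of these markers in the Insl3 result was not tested.

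**Figure D3:**
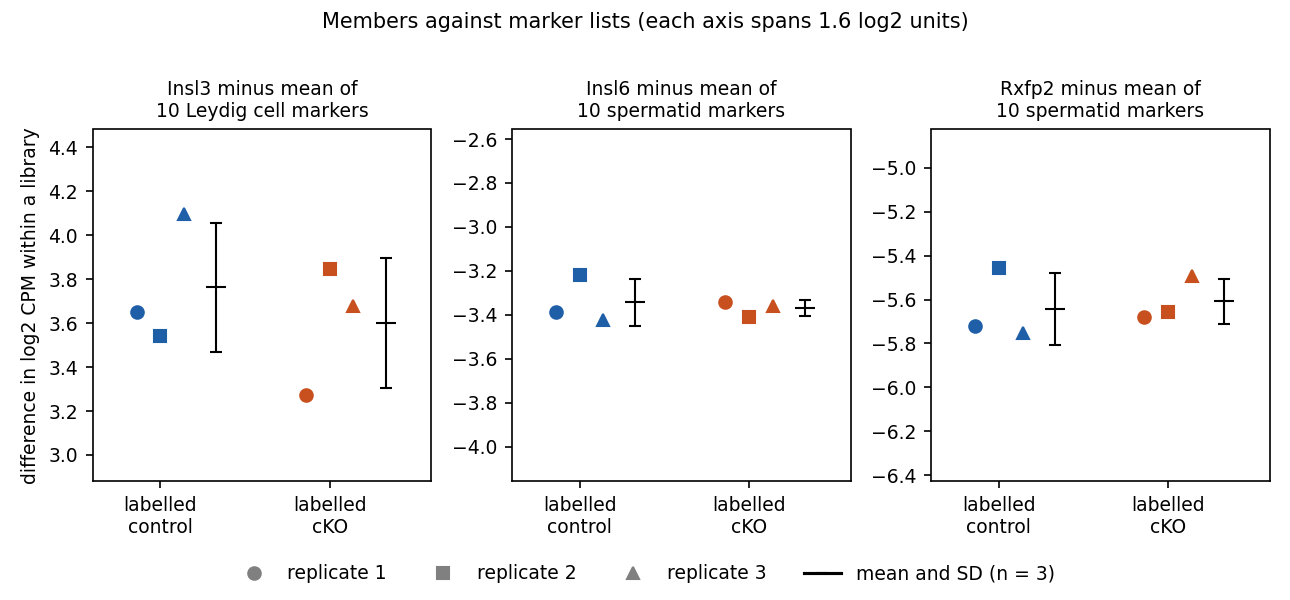
Difference in log2 CPM within each library between a member and the mean of 10 marker genes, with the mean and SD (n = 3) beside each group. The groups overlap in all 3 panels, and the group means differ by -0.16 for Insl3, -0.026 for Insl6 and 0.035 for Rxfp2.

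Genes known to regulate Insl3 in Leydig cells mostly had lower estimates too. Of 11 such genes, 10 were negative and 1 positive, with a median of -1.17. edgeR called 0, or 10 lower without labelled control 2, against 20.7% of all genes. DESeq2 called 8 lower, against 7.67% of all genes, and 8 lay lower with no overlap, against 19.9%. Lhcgr and Nr5a1 are also in the Leydig list and Gata4 in the Sertoli list. Nr5a1, the nuclear receptor SF-1, was at 25.2, 13.3 and 51.9 FPKM against 11.1, 9.74 and 10.2. Klf6, a zinc finger factor, was at 4.15, 2.79 and 8.58 against a mean of 1.92 ± 0.174 (SD, n = 3; log2 -1.32, SE 0.37). The exception was Nr4a1, the orphan receptor NUR77 induced by luteinizing hormone. It stood at 17.1, 16.3 and 10.9 FPKM against 19.6, 19.0 and 19.1, higher in all 3 libraries labelled cKO, with a log2 fold change of 0.48 (SE 0.18) and an edgeR adjusted p of 0.167. In this direction the groups did not overlap for 18.0% of all genes.

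The 5 genes whose profile over the 6 libraries was most like that of Insl3 were C1rl, Tmem176b, Scd1, Rgs2 and Doc2b, by the root mean square difference of log2 CPM centred on each gene's mean. These differences were 0.041 to 0.096 log2 units, among 13976 genes. Rgs2, which encodes a regulator of G protein signalling, was at 6.66, 2.98 and 17.1 FPKM in the control-labelled libraries and 2.51, 2.46 and 2.37 in the cKO-labelled ones. Scd1, a fatty acid desaturase, was at 9.94, 4.67 and 25.5 against 3.41, 3.47 and 3.35. Both repeat the order of Insl3 among the control-labelled libraries. Among steroid synthesis genes of Leydig cells, Cyp11a1 ranked 154 at 0.227, Cyp17a1 165 at 0.233 and Star, the cholesterol transporter gene, 1080 at 0.427. Jak3 ranked 2218 at 0.562. Likeness over 6 libraries is a description only.

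Insl6, the germ cell peptide, went the other way from Insl3 by a small margin. Insl6 (Entrez 27356, chromosome 19, 29321354 to 29325318) had 972, 1204 and 767 expected counts in the control-labelled libraries and 1256, 1164 and 1180 in the cKO-labelled ones. Its FPKM was 89.8, 109 and 70.6 against 110, 102 and 104. Labelled control 2 lay inside the range of the cKO-labelled libraries, so the groups overlapped, and labelled control 3 was lowest. The means were 89.7 ± 19.1 and 105 ± 3.93 FPKM (SD, n = 3 each). The log2 fold change was 0.32 (SE 0.17), a 1.25-fold difference that did not pass in edgeR (adjusted p = 0.230). Without the library labelled control 2 it passed, at 0.53 (adjusted p = 0.0264), in a fit where edgeR called 11.0% of all genes higher. The alternatives together gave adjusted p from 0.0264 to 0.439.

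Spermatid and spermatocyte genes had estimates of the same sign as Insl6 and of similar size. The 10 spermatid markers, among them protamines and transition proteins, were all positive with a median of 0.37, and the 8 spermatocyte markers were all positive with a median of 0.29. edgeR called 0 genes of either list, and DESeq2 called 1 of each higher (Catsper3 and Pou5f2), against 0.405% of all genes. With no overlap 9 and 6 lay higher, against 18.0% of all genes. Without labelled control 2 edgeR called 7 of each list higher, against 11.0% of all genes. Summed spermatid FPKM was 16387 to 22994 against 23679 to 26002. Within a library, Insl6 minus the spermatid mean was -3.39, -3.22 and -3.43 log2 CPM in the control-labelled libraries and -3.34, -3.41 and -3.36 in the cKO-labelled ones. These values span little more than 0.2 log2 units, and the group difference was -0.026 (exact permutation p = 0.9). Profiles most like that of Insl6 were those of Pbp2, Ccdc113, Slco6c1, Nudcd1 and Ccdc70, at 0.025 to 0.031 log2 units. Ccdc113, a cilium and flagellum protein gene, was at 107, 123 and 81.8 FPKM against 125, 119 and 123.

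Rxfp2, the INSL3 receptor gene, had a small positive estimate like that of Insl6, whereas that of its ligand was negative. Rxfp2 (Entrez 140498, chromosome 5, 150018675 to 150082550) had 191, 254 and 151 expected counts in the control-labelled libraries and 247, 244 and 267 in the cKO-labelled ones. In FPKM it stood at 3.05, 4.03 and 2.46 against 3.77, 3.79 and 4.12. Here too labelled control 3 was lowest and labelled control 2 lay within the cKO-labelled libraries. The means were 3.18 ± 0.793 and 3.89 ± 0.197 FPKM (SD, n = 3 each), and the log2 fold change was 0.38 (SE 0.22, edgeR adjusted p = 0.258). It passed without the library labelled control 2, at 0.63 (adjusted p = 0.0348), in the fit where edgeR called 11.0% of all genes higher. The adjusted p over all alternatives ranged from 0.0348 to 0.474.

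Against the spermatid markers Rxfp2 also overlapped between groups. Its log2 CPM minus their mean was -5.72, -5.46 and -5.75 in the control-labelled libraries and -5.68, -5.66 and -5.49 in the cKO-labelled ones, a difference of 0.035 (exact permutation p = 0.6). Its nearest profiles were those of Shcbp1, Ccdc178, Slco6d1, Pih1d2 and Vmn2r-ps11, at 0.036 to 0.042 log2 units, and Insl6 ranked 74 at 0.073. Pih1d2, which belongs to a family of dynein assembly factors, was at 20.4, 26.5 and 17.5 FPKM against 25.4, 25.7 and 27.4. Insl3 had a root mean square difference of 1.32 from Rxfp2, so ligand and receptor had unlike profiles in these libraries.

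The order of levels in FPKM was Insl3, then Insl6, then Rxfp2 in every library, with no overlap between neighbours in that order. Insl6 was 29.4, 27.0 and 28.7 times Rxfp2 in the control-labelled libraries and 29.1, 27.0 and 25.2 times in the cKO-labelled ones, so this ratio was nearly constant. By contrast Insl3 was 31.7, 12.3 and 104 times Insl6 in the control-labelled libraries and 8.70, 10.9 and 9.63 times in the cKO-labelled ones. Insl3 exceeded the mRNA of its receptor 332-fold to 2983-fold in the control-labelled libraries and 243-fold to 293-fold in the cKO-labelled ones. These ratios compare RNA per length, not protein.

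**Figure D4:**
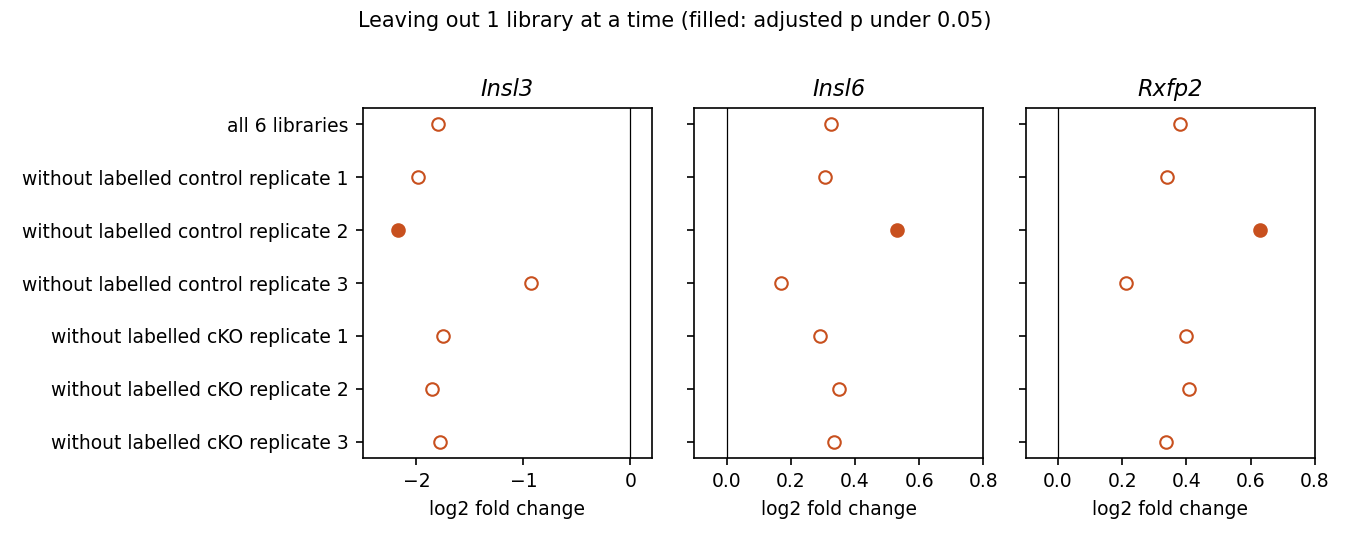
Log2 fold change (labelled cKO minus labelled control) of Insl3, Insl6 and Rxfp2 with all 6 libraries and with each left out in turn; filled circles have an edgeR adjusted p under 0.05. Only leaving out labelled control 2 takes the members past the threshold, in a fit that calls 11.0% of all genes higher and 20.7% lower. Leaving out labelled control 3 brings each closest to 0.

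Relaxin and its receptor were close to the limit of detection, and the filter on low counts removed both from the test. Rln1 (Entrez 19773, chromosome 19, 29331755 to 29334670) had 7, 0 and 6 expected counts in the control-labelled libraries and 0, 1 and 0 in the cKO-labelled ones, where a gene not listed was set to 0. Its FPKM reached 0.61 in labelled control 1. Of its 14 counts 13 came from labelled controls 1 and 3, which are also the libraries with the most Insl3, and in labelled control 2 it was not listed. In total the ratio of labelled control to labelled cKO was 12.7, with an exact 95% interval of 1.90 to 539 for counting error only. edgeR without a filter gave a log2 fold change of -3.24 (SE 1.45, p = 0.0545, adjusted p = 0.219), which rests on these 14 counts and depends on the prior count.

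Rxfp1 (Entrez 381489, chromosome 3, 79641600 to 79737951), the relaxin receptor gene, had 2, 3 and 2 expected counts in the control-labelled libraries and 5, 8 and 8 in the cKO-labelled ones. Its FPKM was 0.05, 0.07 and 0.05 against 0.12, 0.19 and 0.19. The groups did not overlap. That held for 18.0% of the genes that passed the filter, in this direction, and the share at counts as low as these was not computed. The ratio of labelled cKO to labelled control was 3.08 with an exact 95% interval of 1.26 to 8.57, for counting error only. Without a filter edgeR gave a log2 fold change of 1.58 (SE 0.61, adjusted p = 0.196, unadjusted p = 0.0315 from edgeR). The unadjusted p in DESeq2 was 0.127. Rxfp2 stood at 19.9 to 61.0 times the FPKM of Rxfp1, and the ranges of Rln1 and Rxfp1 overlapped.

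Among 12 other genes of the insulin and relaxin superfamily, the 2 insulin-like growth factors and their receptors had lower estimates in the cKO-labelled libraries. Rxfp3, Rxfp4 and Ins1 were listed in no library, and Rln3, Ins2 and Insrr did not pass the filter. Insl5, a peptide best known from the gut, stood at 4.30, 5.78 and 2.83 FPKM against 2.89, 5.35 and 7.64, with a log2 fold change of 0.39 (SE 0.42, edgeR adjusted p = 0.531). The remaining 5 of 6 tested genes were negative and lay lower with no overlap, against 19.9% of all genes. Igf2, a growth factor, was at 14.2, 8.97 and 27.7 FPKM against 5.69, 4.65 and 6.62 (log2 -1.50, SE 0.40). Its signalling receptor gene Igf1r was at 3.93, 2.52 and 7.34 against 1.71, 1.37 and 1.51 (log2 -1.48, SE 0.34), and Igf2r, the receptor that clears IGF2, at 3.49, 2.77 and 3.80 against 2.13, 2.38 and 2.40 (log2 -0.44, SE 0.14). edgeR called 0 of the 6, or 5 lower without labelled control 2, against 20.7% of all genes. DESeq2 called Igf1, Igf2 and Igf1r lower, against 7.67% of all genes.

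Genes that couple such receptors to cyclic AMP did not move as one. Of 28 genes, 26 were tested, with 10 positive, 16 negative and a median of -0.22. edgeR called 0, or 4 higher and 9 lower without labelled control 2, against 11.0% and 20.7% of all genes. DESeq2 called 5 lower (Gnas, Adcy7, Adcy9, Prkacb and Prkar2b), against 7.67% of all genes. Gnas, the stimulatory G protein subunit, was at 134, 83.9 and 233 FPKM against 66.1, 65.9 and 65.5 (log2 -1.07, SE 0.31). The adenylyl cyclase gene Adcy7 was at 4.30, 2.81 and 6.24 against a mean of 1.89 ± 0.353 (SD, n = 3; log2 -1.13, SE 0.28), and Prkar2b, a regulatory subunit of protein kinase A, at 6.06, 6.09 and 10.2 against 3.61, 4.27 and 4.78 (log2 -0.97, SE 0.24). Each lay lower in all libraries labelled cKO. Adcy10, the soluble cyclase of sperm, lay higher, at 66.7, 75.5 and 47.9 against 81.2, 79.2 and 88.4 FPKM (log2 0.48, SE 0.18, edgeR adjusted p = 0.167). It was 1 of 5 genes of the list that lay higher with no overlap, against 10 that lay lower. Over all genes tested these shares were 18.0% and 19.9%.

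The prohormone processing enzymes divided in the same manner. Of 9 genes, 7 were negative and 2 positive, with a median of -0.18. edgeR called 0, or 3 lower without labelled control 2, against 20.7% of all genes. Cpe, the carboxypeptidase that trims prohormones, was at 103, 60.7 and 253 FPKM against 40.2, 43.9 and 40.0 (log2 -1.63, SE 0.45). The convertase genes Furin, at 12.8, 5.58 and 20.6 against 4.48, 5.03 and 4.12 (log2 -1.40, SE 0.39), and Pcsk5, at 1.14, 0.40 and 1.37 against 0.32, 0.36 and 0.24 (log2 -1.59, SE 0.45), were called lower by DESeq2. All 3 lay lower in each library labelled cKO. The 2 calls of DESeq2 stand against 7.67% of all genes. Of the list, 5 genes lay lower and 1 higher with no overlap in CPM, against 19.9% and 18.0% of all genes. Pcsk4, the convertase of germ cells, was at 82.4, 75.0 and 54.0 FPKM against 79.5, 87.6 and 82.3, and its log2 fold change was 0.34 (SE 0.16, edgeR adjusted p = 0.206).

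**Figure D5:**
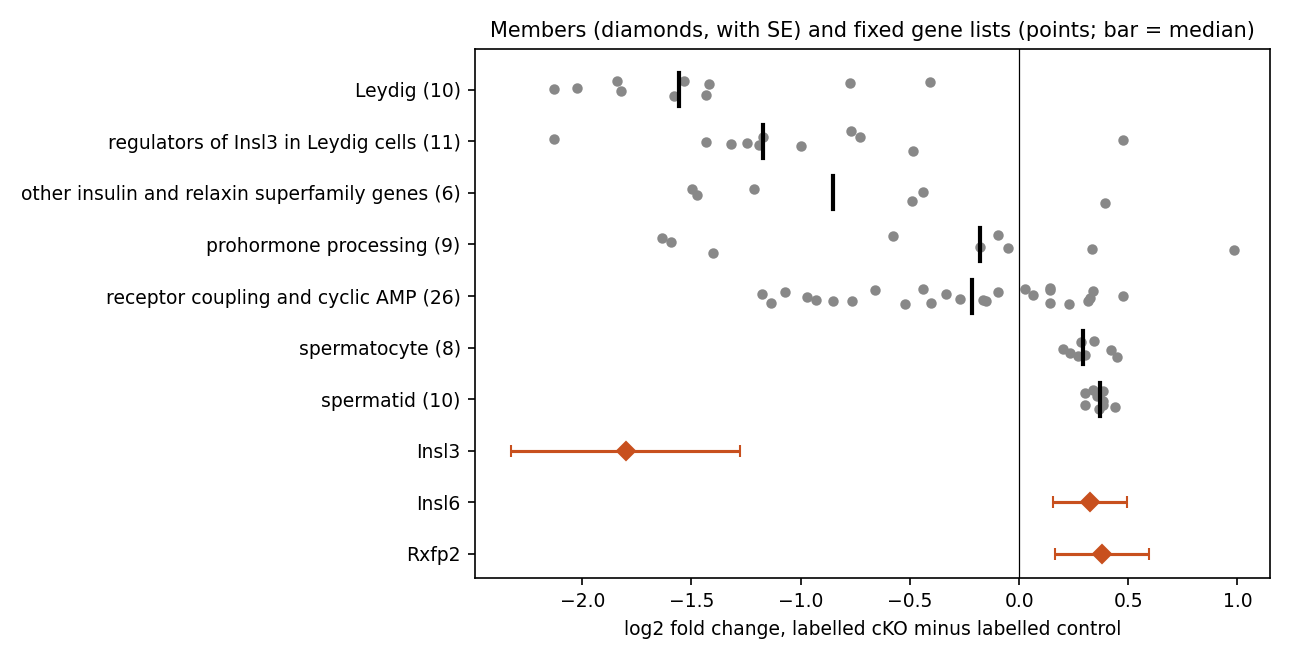
Log2 fold change (labelled cKO minus labelled control) of Insl3, Insl6 and Rxfp2 with SE (diamonds), and of each tested gene in 7 lists (points, number tested in brackets, bar at the median). Insl3 at -1.80 lies among the Leydig genes, whose median is -1.56. Insl6 at 0.32 and Rxfp2 at 0.38 lie among both the spermatid genes (median 0.37) and the spermatocyte genes (median 0.29).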

How the data were processed

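Testis RNA of 6 libraries was read from tables with 1 row per gene, a length, an expected count and an FPKM value, per the file headers. Expected counts, which the authors deposited without normalization, are a column that RSEM writes. The authors also deposited FPKM, scaled for gene length and library depth. The submitters' processing notes name RSEM, HISAT2 2.0.4, Bowtie2 2.2.5, bcl2fastq 2.16, DESeq2 and mm10, with no role. Genes are listed from an FPKM of 0.01, and genes absent from a table were given 0. Whether reads were counted by strand is not given here.

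Counts were rounded and tested in edgeR 4.0.16 (R 4.3.3): filterByExpr (minimum count 10, minimum total 15), TMM scaling, quasi-likelihood F-test, Benjamini-Hochberg adjustment over all 18269 genes. Log2 CPM used a prior count of 2. The common biological coefficient of variation was 22.8%. Counting error was small for Insl3, Insl6 and Rxfp2 beside this spread and large for Rln1 and Rxfp1.

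Members, gene lists and motifs were chosen with earlier results of these data known. Genes named are the members, L3mbtl2, up to 3 genes per list with the smallest p, the 5 nearest profiles per tested member (mean of at least 1 CPM, RefSeq symbol that is no clone or predicted name), and overlapping or nearest genes. Others were chosen after their values were seen. A gene that the rule names is not reported here. An epididymis list had 2 of 8 genes tested (Cst8 and Rnase10, median 0.78), with Lcn5, Lcn8 and Lcn9 not listed. Alternatives were DESeq2 1.42.0, its size factors in edgeR, library totals, limma 3.58.1 on log2(FPKM + 1) and log2(FPKM + 0.1), no filter, a filter of 5 CPM in 3 libraries, a replicate block, each library left out, and, added after seeing the data, Insl3 and Jak3 summed.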

Additional observations from a re-analysis of the deposited data

How the results depend on the processing

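The log2 fold changes of Insl3, Insl6 and Rxfp2 kept their direction under every alternative run. Insl3 ran from -2.17 to -0.93, Insl6 from 0.17 to 0.53 and Rxfp2 from 0.21 to 0.63, and these extremes all come from leaving out the library labelled control 2 or 3. Leaving out labelled control 2 took all 3 past the threshold, in a fit that called 11.0% of all genes higher and 20.7% lower. No other alternative took any of the 3 past it. Library totals alone moved the median of all genes from -0.0048 to -0.10. The count of genes past the threshold, 0 with all libraries in edgeR, was 1436 in DESeq2, 1 in limma on log2(FPKM + 1) and 1 on log2(FPKM + 0.1), and 0 to 5900 when 1 library was left out. The differences from marker lists lie near 0 and changed sign: Insl3 against Leydig markers ran from -0.29 to 0.0037 with 1 library left out, Insl6 against spermatid markers from -0.067 to 0.036 and Rxfp2 from -0.023 to 0.13, and Rxfp2 was -0.034 on log2(FPKM + 1). The cause of these changes was not tested. Rln1 and Rxfp1 had no value in the fits with a filter. Equal replicate numbers did not pair the libraries: their deviations from the group means correlated at 0.043, -0.007 and -0.039. With the replicate number as a block edgeR again called 0 genes, and Insl3, Insl6 and Rxfp2 were at -1.47, 0.35 and 0.41, none past the threshold.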

Other observations

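The genes beside the members were read as well. Insl3 overlaps the Janus kinase gene Jak3, and another Janus kinase gene lies beside Insl6. Insl6 and Rln1 are neighbours on chromosome 19, 6436 bases apart, and Jak2 (29251803 to 29313095) ends 8258 bases before Insl6. Jak2, a cytokine receptor kinase, was at 3.27, 2.33 and 6.30 FPKM in the control-labelled libraries and 1.56, 1.48 and 1.98 in the cKO-labelled ones (log2 -1.14, SE 0.34, edgeR adjusted p = 0.166). Plgrkt, on the far side of Rln1, encodes a plasminogen receptor and was at 4.31, 4.24 and 10.5 against 2.89, 1.89 and 1.76 (log2 -1.43, SE 0.41, edgeR adjusted p = 0.166). Both lay lower in all libraries labelled cKO, as did 19.9% of all genes tested. Insl6, between them, had a positive estimate of 0.32.

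Insl3 is followed 795 bases on by B3gnt3, a glycosyltransferase gene at 0.97, 0.13 and 2.25 FPKM in the control-labelled libraries and 0.39, 0.29 and 0.18 in the cKO-labelled ones. On the other side Unc13a, a gene of vesicle release, was at 0.37, 0.10 and 0.50 against 0.11, 0.13 and 0.14. Labelled controls 1 and 3 were highest for both, as for Insl3, and labelled control 2 was the lowest library for each. Among genes nearest the receptor genes, Tmem144, 74612 bases from Rxfp1, was at 34.1, 37.5 and 34.8 FPKM against 41.2, 37.2 and 39.4. Fry, 36067 bases from Rxfp2, was at 2.59, 2.12 and 2.84 against 1.91, 1.98 and 2.43. On the other side of Rxfp1, 4930579G24Rik lay 8779 bases off, at 21.0, 21.5 and 15.5 against 23.3, 22.9 and 22.3. On that of Rxfp2, 4930500F04Rik lay 154394 bases off, at 6.81, 8.33 and 7.30 against 8.12, 7.92 and 7.77.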
